A study of Sus scrofa with 2 samples.

Results

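Small RNA reads of 29 to 32 nt with T at the 5' end, the DNA letter for U, are described here in pig oocytes (Sus scrofa). They were picked from the deposited sequence tables by length, by a first base of T and by a GC content below 80%. This gave 69834 distinct sequences of the 1166705 in both libraries together. The Dicer knockdown library held 44084 of them with 762090 reads, and the control library held 42089 with 651120 reads. The knockdown library came from oocytes in which siRNA against Dicer was used at the germinal vesicle stage, ahead of in vitro maturation for 42 h. The control library came from oocytes at metaphase II after 42 h of in vitro maturation, and the labels give the siRNA treatment as a text common to both samples, without saying what the control oocytes received. Dicer, a ribonuclease, makes miRNAs from hairpins and siRNAs from long duplexes. Number of oocytes per library, pooling and the level of Dicer itself were not given by the sources used here. The libraries held 11982925 knockdown reads and 11836160 control reads in all. Each group had 1 library, and so no comparison of the groups could be tested. All differences below are between these libraries, and every interval is a 95% interval that covers counting error only. The libraries were amplified by PCR and the labels name no molecular identifiers, so reads are not independent molecules.

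RNAs of this length in germ cells are mostly discussed as piRNAs, the guides of PIWI proteins, which silence transposons and other targets. Many piRNAs begin with U. The 5' end is set by cutting of a precursor, and the 3' end is then trimmed and methylated. In the ping-pong cycle a piRNA cuts a complementary transcript so that the partners overlap over 10 nt at their 5' ends, and a partner of a guide that begins with U then has A at base 10. No genome was used here, so the sequences were not placed on chromosomes, and whether they are bound by PIWI proteins was not tested. Fewer molecules of one kind and a larger share of all others cannot be told apart in shares of a library.

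The sequences below led each length in reads. They are the 3 most abundant of 29, 30, 31 and 32 nt, each printed 5' to 3' with the bases past position 28 in capitals. Letters after the length only name them.
29a: tttcttgctacaacctgagctcttggccT
29b: taggactctatgaccttcctctttagccT
29c: ttctgtagcaacagttaaaacgaccctgA
30a: tttcttgctacaacctgagctcttggccTC
30b: tgaactagatctccagctgtggcattcaTC
30c: ttctgaacttgtctcttgagcatcaccgTT
31a: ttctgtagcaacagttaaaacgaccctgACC
31b: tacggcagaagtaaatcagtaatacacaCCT
31c: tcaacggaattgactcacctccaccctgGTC
32a: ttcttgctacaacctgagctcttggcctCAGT
32b: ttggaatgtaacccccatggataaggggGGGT
32c: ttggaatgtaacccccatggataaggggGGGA
30a is 29a with 1 more base, 31a is 29c with 2 more, and 32a starts 1 base inside 29a and runs 4 bases past its end. 32b and 32c differ only in their last base.

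The reads were spread very unevenly. 29a alone had 111124 reads in the knockdown library, 14.6% of all reads in this class, and 76544 in the control library, 11.8%. The 10 most abundant sequences of each library held 38.4% of these reads in the knockdown library and 36.5% in the control library, and the 100 most abundant held 62.8% and 61.8%. In the knockdown library 30 sequences were enough to hold 50% of the reads, and 35 in the control library. At the other end, 52.9% of the distinct sequences in the knockdown library and 57.6% in the control library had a single read, and together these single reads were 3.06% and 3.72% of the total. Reads beginning with T of 27 to 28 nt were concentrated further, with 68.9% of knockdown reads and 70.4% of control reads in their 10 most abundant sequences.

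By length, the class was mostly 29 and 30 nt. Sequences of 29 nt had 463447 knockdown reads and 377545 control reads, and those of 30 nt had 262071 and 238214. There were 32736 knockdown and 31404 control reads of 31 nt, and 3836 and 3957 of 32 nt. At 29 nt T was the first base of most reads, 78.4% in the knockdown library and 77.4% in the control library, and at 30 nt, 86.2% in each. At 32 nt its share was 52.7% and 50.03%, the lowest of the lengths from 29 to 32 nt.

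The abundant sequences were shared between the libraries. Sequences seen in both were 23.4% of the distinct sequences, but they held 94.5% of the knockdown reads and 94.6% of the control reads. Over all sequences of the tables the shares were much the same, with 20.9% of distinct sequences, 94.03% of knockdown reads and 93.9% of control reads. Of the 100 most abundant in each library, 84 were the same. Over the 1010 sequences whose reads in the 2 libraries summed to 100 or more, log2 read counts had a Pearson correlation of 0.92 between libraries, a description of these 2 libraries only. The most abundant sequence seen in the knockdown library alone had 54 reads, and the most abundant seen in the control library alone had 121.

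Reads of 29 to 32 nt starting with T took 6.36% of the knockdown library and 5.50% of the control library, a ratio of knockdown to control of 1.16 (1.15 to 1.16). The ratio depended on length. It was 1.21 (1.21 to 1.22) at 29 nt, 1.09 (1.08 to 1.09) at 30 nt, 1.03 (1.01 to 1.05) at 31 nt and 0.958 (0.916 to 1.001) at 32 nt. The difference at 32 nt was within counting error. Among shorter reads starting with T the ratio was 0.931 at 24 nt, 1.002 at 25 nt, 0.995 at 26 nt, 1.03 at 27 nt and 1.10 at 28 nt, so that it was highest at 29 nt among the lengths from 24 to 32 nt. Reads of 29 nt starting with another base had a ratio of 1.14 (1.14 to 1.15), and those of 30 nt 1.09 (1.07 to 1.10), so the larger share at these lengths was not limited to a first T. Their shorter counterparts had 1.03 at 24 nt, 1.05 at 25 nt, 1.22 at 26 nt, 1.04 at 27 nt and 1.16 at 28 nt. Reads with another first base thus had their highest ratio at 26 nt, not at 29 nt. With another first base the ratio was 0.587 (0.574 to 0.600) at 31 nt, or 1.05 (1.02 to 1.09) without the most abundant of those sequences, and 0.861 (0.822 to 0.902) at 32 nt. How far replicate libraries would differ at each length was not measured.

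A single sequence moved these ratios. Without the most abundant sequence of each length, the ratio was 1.18 (1.18 to 1.19) at 28 nt, 1.16 (1.15 to 1.16) at 29 nt, 1.04 (1.04 to 1.05) at 30 nt, 1.01 (0.994 to 1.03) at 31 nt and 1.07 (1.02 to 1.13) at 32 nt. The highest ratio was then at 28 nt, not at 29 nt. Without 32a the direction at 32 nt changed, since 32a had 540 knockdown reads and 919 control reads, a ratio of 0.580 (0.521 to 0.646). By GC content, ratios ran from 1.05 (0.925 to 1.19) for sequences of 70 to 80% GC to 1.19 (1.18 to 1.20) for those of 30 to 40%, with 1.15 (1.14 to 1.15) for those of 40 to 50%, which held 60.5% of the knockdown reads and 61.1% of the control reads and gave 1.08 (1.07 to 1.08) without 29a. At the limits of the rule, sequences of 75% GC up to the limit had 126 knockdown and 113 control reads, and those at or above 80% GC had 97 and 24. Reads of 33 nt starting with T, just past the length limit, had 710 knockdown and 1172 control reads.

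Length was also compared among forms of one RNA, by grouping sequences that share their first 18 bases. Among the 166 groups with at least 100 reads at both 29 and 30 nt, the 30-nt forms had a lower ratio than the 29-nt forms in 109 groups and a higher one in 57, with a median difference of -0.17 on the log2 scale. Between 28 and 29 nt the groups were evenly divided, with the longer form higher in 113 of 228 and a median difference of -0.01. Between 27 and 28 nt the longer form was higher in 152 of 241 groups, with a median difference of 0.16. The ratio was thus more often higher at 28 than at 27 nt, and more often lower at 30 than at 29 nt. The groups are not independent, since all come from the same 2 libraries.

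Sequence by sequence, differences of 2-fold or more were a minority. Among those 1010 sequences, 71 (7.03%) had a ratio of 2 or more, against 5.65% of all 13658 sequences of the tables with that many reads. Another 33 (3.27%) had a ratio of 0.5 or less, against 5.64% of all sequences, and 906 were neither. The median log2 ratio was 0.15, with the middle 50% of values from -0.20 to 0.50, and that of all sequences with at least 100 reads was -0.06. For the 573 sequences of 29 nt the median was 0.18, with 47 higher and 16 lower, and for the 361 of 30 nt it was 0.12, with 18 higher and 12 lower. For the 68 of 31 nt it was 0.11, with 6 higher and 4 lower, and for the 8 of 32 nt it was -0.20, with 0 higher and 1 lower. The 27- to 28-nt sequences starting with T had a median of 0.12, with 6.64% of them higher and 4.20% lower. Taken alone, those of 28 nt had a median of 0.199, slightly above that of 29 nt, and those of 27 nt one of 0.047.

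The leading sequences did not all go the same way. 29a had a ratio of 1.43 (1.42 to 1.45) and its 30-nt form 30a, with 52891 knockdown reads and 40023 control reads, a ratio of 1.31 (1.29 to 1.32). 29b had 29737 reads in the knockdown library and 24275 in the control library, a ratio of 1.21 (1.19 to 1.23). 29c was nearly level, with 17443 and 16259 reads and a ratio of 1.06 (1.04 to 1.08). In the other direction, 30b was lower in the knockdown library, at 18768 reads against 24728 in the control library, a ratio of 0.750 (0.736 to 0.764). 30c was close to equal, with 17841 and 18182 reads, a ratio of 0.969 (0.949 to 0.990).

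Among the longer ones, 31a had 3347 knockdown reads and 2664 control reads, a ratio of 1.24 (1.18 to 1.31). 31b had 2860 and 2368, a ratio of 1.19 (1.13 to 1.26). 31c, by contrast, had 1473 knockdown reads and 2718 control reads, a ratio of 0.535 (0.502 to 0.571), one of the 5 lowest among sequences with at least 1000 reads. 32b had 639 and 483 reads, a ratio of 1.31 (1.16 to 1.47), and 32c had 464 and 270, a ratio of 1.70 (1.46 to 1.98). 32b and 32c differ only in their last base, and their intervals overlapped slightly. Whether their ratios differ by more than counting error was not tested.

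A minimum of 1000 reads, both libraries summed, left 137 sequences, of which 8 had a ratio of 2 or more and 2 a ratio of 0.5 or less. Of all 1853 sequences with that minimum, 86 (4.64%) and 60 (3.24%) did. The 5 with the largest ratio and the 5 with the smallest follow, apart from 31c above, with the bases past position 28 in capitals. They are shown because they mark the range of the differences among abundant sequences.
30d: ttggaaagtggttttctaatgtatttggGC
29d: tcccacatggtctagcggttaggattccT
30e: tagtatcgaaacgactctaaagctgagcCT
29e: tcttgagtcatcttgactatcgtcagtcT
30f: ttggaatgtaacctccatggataaggggGG
29f: tcttgtgagagatacaagcgggccggggA
29g: ttggcgaagatggattccagagcaaaagT
29h: tataaaacgagaaggataaaggtaggatT
30g: tttgattatatcatgaatgttcttttccTG
30d had 1120 knockdown reads and 226 control reads, a ratio of 4.90 (4.24 to 5.67). 29d had 870 and 256, a ratio of 3.36 (2.92 to 3.87). 30e, 29e and 30f had ratios of 2.42, 2.29 and 2.27. At the low end 29f had 243 knockdown reads and 867 control reads, a ratio of 0.277 (0.239 to 0.320). 29g had 326 and 777, a ratio of 0.414 (0.363 to 0.472), followed by 29h with 0.519 and 30g with 0.563.

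Some of these ratios were those of the RNA as a whole and others of a single form. For 29g the whole group that shares its first 18 bases was lower, with 1378 knockdown reads and 3579 control reads, a ratio of 0.380 (0.357 to 0.405), close to that of 29g itself. 30e made up 89.7% of its group in the knockdown library and 82.4% in the control library, and the group's ratio of 2.23 was close to its own. 29f was the opposite case. It was 0.208% of its group's knockdown reads and 0.649% of the control reads, and the group, led by a 24-nt form with 96305 and 113828 reads, had a ratio of 0.862 (0.855 to 0.869). 30d was 87.2% of its group in the knockdown library and 59.9% in the control library, and its most abundant shorter form, of 25 nt, had 52 knockdown reads and 37 control reads.

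29d begins as the tRNAs for glutamate do, an identification from background knowledge and not from a reference sequence in these files. Fragments from the 5' part of tRNAs are common in small RNA libraries. Whether 29d is such a fragment, a piRNA or both was not tested. Reads of 29 to 32 nt with the first 10 bases of 29d had 1924 knockdown reads and 981 control reads, a ratio of 1.94 (1.79 to 2.09). Reads with a 1-base variant of that start had 733 and 153, a ratio of 4.73 (3.97 to 5.67). The most abundant read with the variant start is 29i, whose capital again marks the base past position 28.
29i: tcccatatggtctagcggttaggattccT
29i had 690 knockdown reads and 134 control reads, a ratio of 5.09 (4.22 to 6.17). Shorter reads, of 18 to 28 nt, with that variant start had 180 knockdown reads and 67 control reads, a ratio of 2.65 (1.99 to 3.57).

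One sequence was seen in the control library alone with over 100 reads. It was chosen after its values were seen, and is shown because it had the lowest ratio of the 1010.
29j: tcggctcgtgcgtcgatgaagaacgcagC
29j had 0 knockdown reads and 121 control reads, which puts it 40.8-fold lower in the knockdown library when 0 is set to the floor of 3 reads. The exact interval gives at least 32.7-fold. Its letters are those of 5.8S rRNA of mammals as known from background. The 9 other sequences with its first 18 bases had 0 knockdown and 24 control reads. Reads that hold its last 18 bases but are not 29j had 85 knockdown and 103 control reads, a ratio of 0.815 (0.604 to 1.10). Those that also end at its last base had 32 and 61, a ratio of 0.518 (0.327 to 0.807). Reads with this 5' start were seen in the control library alone, while other reads of the same stretch were in both.

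Base use along the sequences had an anchor at each end. Each distinct sequence was counted once, so that 29a and the like do not set the values, and position 1, which the rule fixes as T, is no result. A at base 10 was the clearest feature of the 5' part. It stood at 43.9% of distinct sequences in the knockdown library and 43.1% in the control library, against an average A content of 28.8% in each over positions 11 to 20. Among sequences of 29 nt no other position from 2 to 26 exceeded 34.4% A in the knockdown library and 33.8% in the control library, the values at position 5. By length, A at base 10 was 43.8% in the knockdown library and 42.8% in the control library at 29 nt, 44.5% and 43.7% at 30 nt, 43.3% and 44.2% at 31 nt, and 36.2% and 37.6% at 32 nt. Sequences of 29 to 32 nt starting with another base had 34.6% and 36.1%, and those of 27 to 28 nt starting with T had 42.2% and 41.4%.

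Weighted by reads, the share of A at base 10 was 64.9% in the knockdown library and 61.9% in the control library, and abundant sequences weigh more in it. Of the 12 leading sequences printed first, 8 have A there, namely 29a, 29b, 29c, 30a, 31a, 31b, 32b and 32c. These are not separate cases, since 29a and 30a, 29c and 31a, and 32b and 32c share their 5' start. In 30b, 30c and 31c it is T, and in 32a it is C. Counting the most abundant sequence of each group with the same first 18 bases once gave 40.5% and 40.1%. The share thus varied with the weight given to abundant sequences, and stayed above the 28.8% of inner positions in each of these counts. By reads, other single positions were rich in A too. At 29 nt, position 13 had 51.4% in the knockdown library and 49.2% in the control library, against 69.8% and 67.7% at base 10. Base 10 also had the most A at 30 and 31 nt. At 32 nt position 11 had the most, 58.7% and 58.5%, against 46.7% and 37.5% at base 10. Whether complementary partners exist was not tested.

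The other anchor lay at the 3' end and moved with it as the sequences lengthened. Among distinct sequences, the last base was T in 42.3% of the knockdown library and 40.9% of the control library, against 28.1% and 28.04% T over positions 11 to 20. The base before it was C in 40.6% and 38.4%, against 20.7% C over those positions in each library. At the position 4 from the end, G was at 33.05% and 32.1%, against 22.4% and 22.5%, and T only at 17.2% and 17.4%. T was also sparse 3 bases from the end, at 15.5% and 15.7%. Position by position, the most frequent bases toward the end were G, then A or C, then C, then T. Of the leading sequences printed first, only 29a and 29b end in gcct.

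From position 2 to the position 4 from the end, G was most frequent at position 26 in sequences of 29 nt, at 27 in those of 30 nt and at 28 in those of 31 nt. At 32 nt it was at 28 in the knockdown library and at 29 in the control library. C before the last base was at 38.0% in the knockdown library and 35.5% in the control library at 29 nt, 42.4% and 39.9% at 30 nt, 49.8% and 48.9% at 31 nt, and 39.1% and 41.5% at 32 nt. The last base was T in 41.2% and 39.7% at 29 nt, 42.99% and 41.4% at 30 nt, 46.2% and 45.7% at 31 nt, and 42.003% and 41.7% at 32 nt. Sequences starting with another base had a like end, with T last in 38.6% and 38.9% and C before it in 39.9% and 38.9%, as did those of 27 to 28 nt starting with T, with 39.4% and 38.2% T and 35.8% and 34.4% C. The origin of the pattern was not tested.

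Most of these reads had shorter forms with the same 5' start. In the knockdown library 94.6% of the reads of 29 to 32 nt starting with T had an exact 5' part of 18 to 28 nt in the same library, and in the control library 96.1%. By distinct sequences the shares were 62.9% and 64.4%, with 53.5% and 54.4% among those of a single read. A shorter form of 28 nt was listed for 86.3% of the knockdown reads and 88.1% of the control reads, and one of 23 nt for 85.3% and 86.0%. For 25 nt the shares were 60.9% and 84.1%, against 85.5% and 86.1% for 24 nt and 76.2% and 80.1% for 26 nt. A form with even a single read counted as listed, so a few reads decide this for all reads of an abundant sequence. In the group of 29a, reads of 25 nt numbered only 3 and 12, while 29a itself was 14.6% and 11.8% of the class. The gap at 25 nt is thus not a measure of how the class differs between the libraries. A shorter form was more abundant than the sequence itself for 61.4% of the knockdown reads and 58.6% of the control reads. Reads of 29 to 32 nt starting with another base had a more abundant shorter form less often, for 21.7% and 28.9%, or 31.8% and 33.5% by distinct sequences.

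The 69834 sequences fell into 45871 groups by their first 18 bases, of which 36040 held a single sequence of 29 to 32 nt. The 130 groups with at least 1000 such reads held 70.9% of them. Within the groups, lengths of 29 to 32 nt made up 8.46% of all reads in the knockdown library and 7.23% in the control library, so most reads of these groups were shorter. By the most frequent length of their group, 27.3% of the knockdown reads in this class, and 23.8% of the control reads, belonged to groups that peaked at 28 nt. Most of these reads came from the group of 29a alone. Of the knockdown reads in this class 29a held 14.6% and 30a 6.94%, and of the control reads 11.8% and 6.15%. Groups that peaked at 29 nt held 23.6% and 21.8%, and those that peaked at 30 nt 14.2% and 18.3%. Groups that peaked at 24 to 26 nt held 15.9% and 18.2%, and those that peaked at 18 to 23 nt 9.47% and 9.79%. Reads of 29 to 32 nt were thus in part the main form of their RNA and in part a minor long form of an RNA with a shorter peak.

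The 3 groups with most reads in this class each showed a different length profile. The group of 29a was divided over 28, 29 and 30 nt. Its forms are printed with the bases past its 28-nt form in capitals.
Form of 28 nt: tttcttgctacaacctgagctcttggcc
Form of 29 nt, 29a: tttcttgctacaacctgagctcttggccT
Form of 30 nt, 30a: tttcttgctacaacctgagctcttggccTC
Form of 31 nt: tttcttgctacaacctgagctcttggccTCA
Form of 33 nt: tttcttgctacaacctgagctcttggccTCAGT
Lengths of 28, 29 and 30 nt held 41.5%, 37.6% and 17.5% of the group's 313211 knockdown reads, and 43.1%, 35.1% and 17.8% of its 230645 control reads. The ratio was 1.29 for the 28-nt form and 1.43 for 29a, then 1.31 for 30a and 1.02 for the form of 31 nt. The form of 33 nt, just past the length limit, had 75 knockdown reads and 438 control reads, a ratio of 0.169 (0.131 to 0.217). 32a ends at the same base as this form, 4 bases past the end of 29a, and was lower in the knockdown library too. Reads starting at the first base of 32a but ending where 29a or 30a end were not, with 4347 knockdown and 3631 control reads, and 2436 and 2257.

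The group of 29b was nearly a single form. Length 29 nt held 96.3% of its 31690 knockdown reads and 95.5% of its 26026 control reads. Its 28-nt form had only 371 and 280 reads, and its most abundant shorter form, of 22 nt, had 402 and 423. The ratio of the 22-nt form was 0.939 (0.817 to 1.08), while that of 29b was 1.21.

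The group of 29c peaked at 27 nt, and its long forms were minor. They extend the most abundant sequence of both libraries, and their added bases are in capitals.
Form of 27 nt: ttctgtagcaacagttaaaacgaccct
Form of 29 nt, 29c: ttctgtagcaacagttaaaacgaccctGA
Form of 30 nt: ttctgtagcaacagttaaaacgaccctGAT
Form of 31 nt, 31a: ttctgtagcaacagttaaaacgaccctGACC
Second form of 31 nt: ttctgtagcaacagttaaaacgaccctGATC
The 27-nt length held 88.1% of the group's 809303 knockdown reads and 88.5% of its 772360 control reads. Lengths of 29 to 32 nt together held 3.27% and 3.32%, and 28 nt held only 0.232% and 0.226%, less than the 2.29% and 2.22% at 29 nt. The long forms diverged at the base after GA. The one with C, 31a, had a ratio of 1.24 (1.18 to 1.31). The ones with T were lower in the knockdown library, the form of 30 nt with 2059 knockdown reads and 2928 control reads, a ratio of 0.695 (0.656 to 0.735), and the second form of 31 nt with 1257 and 1965, a ratio of 0.632 (0.588 to 0.679). Long forms that share 29 bases thus went in opposite directions, which is not visible in the 27-nt form, with a ratio of 1.009 (1.005 to 1.012).

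A second case of forms that part near the 3' end was the fourth most abundant sequence of 29 nt, named after its values were seen because variants of it had some of the outermost ratios. Capitals mark the bases past position 27.
29k: tgggaaaagaatctcaaaaggaacgggTA
29l: tgggaaaagaatctcaaaaggaacgggCA
29m: tgggaaaagaatctcaaaaggaacgggGA
29k had 13021 knockdown reads and 8033 control reads, a ratio of 1.60 (1.56 to 1.65). 29l had 115 and 6, a ratio of 18.9 (8.44 to 52.7), the largest of the 1010 sequences with at least 100 reads. 29m had 34 knockdown reads and 180 control reads, a ratio of 0.187 (0.125 to 0.270). The forms differ from each other only at base 28, and all end in A.

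In pooled reads, variants of a single base were most frequent at the last base. For the 78 sequences of 29 nt with at least 1000 reads that exceeded all their single-base variants, variants at the last base had 3.002 reads per 100 reads of the sequence in the knockdown library and 2.79 in the control library. At single positions from 2 to 26, variants had 0.0264 to 0.333 reads per 100 in the knockdown library and 0.0188 to 0.214 in the control library. 29a weighed heavily in this, and without it the values at the last base were 1.69 and 1.63. For the 41 sequences of 30 nt the last base gave 1.70 and 1.22, against inner positions of 0.0314 to 0.290 and 0.0279 to 0.209. A was the base most often found in place of the last one, with 63.4% and 57.7% of these variant reads at 29 nt and 58.02% and 59.4% at 30 nt. At 29 nt this rested on 29a. Without it T led, with 58.8% of the variant reads in the knockdown library and 58.8% in the control library, and A had 23.7% and 20.97%. At 30 nt, without 30a, A had 52.9% and 56.3%.

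The form of 29a that ends in A in place of T had 5056 knockdown reads and 3370 control reads, a ratio of 1.48 (1.42 to 1.55), close to that of 29a. Over all 78 sequences of 29 nt, the median at the last base was 0.530 reads per 100 in the knockdown library and 0.446 in the control library, so the high pooled values rested on a minority of them. Variants at the last base outnumbered those at every inner position in 31 of the 78 in each library, and in 19 of the 41 of 30 nt in the knockdown library and 20 in the control library. Sequences of 27 nt starting with T had pooled values of 1.08 and 1.01, and those of 28 nt 1.21 and 1.21. The origin of these end bases was not tested.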

How the data were processed

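Per the labels' protocols, adapter-ligated small RNA of pig oocytes was amplified by PCR and sequenced, following Illumina's small RNA library protocol. For each library the authors deposited 1 table with the length, raw read count and sequence of each distinct read, of 18 to 44 nt and not normalized. The submitters' processing notes list Bowtie2. For its version and role, the genome build and the trimming, nothing is given in the sources used here. Sequencing depth was 11982925 knockdown and 11836160 control reads.

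Sequences of 29 to 32 nt with a first T and GC below 80% were taken, and 72 of them, with 109 knockdown and 72 control reads, held the start of the 3' adapter. Ratios are of library shares, with exact conditional 95% intervals. Log2 ratios had 0.5 reads added to each count. The 2-fold rule used sequences whose reads summed to 100 or more over the libraries. No p-value was computed, as each group had 1 library. Named sequences were the 3 most abundant of each length, the 5 largest and 5 smallest ratios over a minimum of 1000 reads, and the 3 groups sharing 18 first bases with most reads. Others were named after their values were seen. The members, lists and rules were chosen with earlier results of these data known. Calculations were checked on simulated counts. Alternatives varied the reads used as denominator, abundant and rare sequences, the GC limit, read minimums and shorter forms. The tools were scipy 1.17.1, pandas 2.3.3, numpy 2.4.6 and Python 3.11.15. One sequence and the reads related to it are not reported here.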

Additional observations from a re-analysis of the deposited data

Results flagged for a closer look

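Reads of 29 to 32 nt starting with T but with at least 80% GC, which the rule leaves out, stood above the control library, with 97 knockdown and 24 control reads, a ratio of 3.99 (2.53 to 6.53). One sequence of 30 nt had 37 knockdown reads and 1 control read of these. Its form 1 base shorter had 19 knockdown reads and 0 control reads. Their origin was not tested.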

How the results depend on the processing

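No paired analysis was possible because there was 1 library per group and no test. Of 45 alternatives, 18 gave values within the interval of the reported one, or counts within 1.5 times of it, and 27 moved. Without the most abundant sequence of a length, added after seeing the data, the ratio was 1.16 at 29 nt, 1.04 at 30 nt, 1.01 at 31 nt and 1.07 at 32 nt, where the direction changed from the 0.958 of all sequences. The 10 most abundant sequences, of the class or of the length, were also left out. The ratio was then 1.12 for the class, 1.14 at 29 nt, 1.098 at 30 nt and 1.07 at 31 nt. At 32 nt it was 0.965 (0.898 to 1.04) in that count, again lower in the knockdown library but within counting error. Without the group of 29a, an alternative added after seeing the data, the ratio was 1.10 for the class. With at least 1000 reads, 8 sequences were 2-fold higher and 2 lower, of 137, against 4.64% and 3.24% of all sequences with that minimum. A shorter form with at least 10 reads was listed for 87.4% of knockdown and 87.1% of control reads, and one of 24 to 28 nt for 93.3% and 94.9%. Weighted by reads, A at base 10 was 64.9% of the knockdown and 61.9% of the control library, and it was 43.9% and 43.1% by distinct sequences, 53.1% and 52.1% without the 10 most abundant, and 40.5% and 40.1% with 1 sequence per group, a count added after seeing the data. T at the last position was 51.5% and 49.6% by reads, and 42.3% and 40.9%, 47.3% and 45.8%, and 44.3% and 42.8% in these counts. With 1 library per group, the spread between oocyte samples limits every comparison and is not known.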

Other observations

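The 5' ends of the abundant sequences were mostly, but not always, fixed. For the 130 groups with at least 1000 reads of 29 to 32 nt, reads of at least 24 nt that start within 5 bases of the group's start were counted, over both libraries together. The median share that started exactly at it was 88.8%, and it was over 90% in 63 groups and under 50% in 27. Groups that start a few bases from each other, such as those of 29a and 32a, are counted in each other's windows.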
